A study of Homo sapiens with 24 samples.

Results

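The aminoacyl-tRNA synthetases are the enzymes that join each amino acid to its transfer RNA. The genes described here are 36 synthetase genes chosen by symbol, out of 58735 genes in the deposited tables: 20 whose product works mostly in the cytosol and 16, with symbols ending in 2, whose product works in mitochondria. The rule is a list of symbols and holds no threshold on a measured value, although the list was drawn up with earlier results of these data known. All 36 had enough counts to be tested, among 19952 genes tested in all. The 24 RNA-seq libraries were made from total RNA of HEK293T, a cell line of human embryonic kidney origin that carries the SV40 large T antigen. The libraries came from 3 genotypes: MIR210HG-KO, labelled as a knockout of the long non-coding RNA gene that hosts miR-210, MIR210-KO, labelled as a knockout of the microRNA gene itself, and unedited WT cells. Each was kept for 24 h at 1% O2 (hypoxia) or 21% O2 (normoxia), with 4 libraries per group. Neither the clonal state of the knockout lines nor the origin of the 4 libraries of a group from separate cultures is stated in the labels, so the spread between them may be technical.

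Cytosolic and mitochondrial protein synthesis use largely separate sets of synthetases, all encoded in the nucleus. GARS and KARS each supply both compartments from a single gene, EPRS joins the glutamyl and prolyl enzymes in a single protein, and FARSA and FARSB are the alpha and beta subunits of the cytosolic phenylalanyl enzyme. Several cytosolic synthetases are held together in the multi-synthetase complex. Many cytosolic synthetase genes are known targets of ATF4, the transcription factor of the integrated stress response, which is switched on when an eIF2 alpha kinase such as PERK senses stress in the endoplasmic reticulum or GCN2 senses uncharged transfer RNA. The mitochondrial set charges the transfer RNAs used to translate the messages of the mitochondrial genome, which encode subunits of the respiratory chain and of ATP synthase.

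Total counts ran from 25556776 to 37858947 per library. MIR210HG had 0 counts in all 8 MIR210HG-KO libraries, which bounds its expected total over each group of 4 at about 3 counts (95% confidence). Its level in CPM, counts scaled to the TMM-adjusted library size, was 18.9 to 22.2 in hypoxia MIR210-KO and 16.8 to 21.0 in hypoxia WT (0.12 ± 0.12, not called). In normoxia it was 2.10 to 4.71 CPM in MIR210-KO and 4.83 to 6.34 CPM in WT, without overlap, and MIR210HG was lower in MIR210-KO there (-0.71 ± 0.15 on the log2 scale, edgeR adjusted p = 4.4e-04). Counts of the MIR210 precursor totalled 33 over the hypoxia MIR210-KO libraries and 30 over hypoxia WT, so they do not distinguish the libraries labelled MIR210-KO from WT, and that label was not otherwise checked. Precursor counts were 0 over hypoxia MIR210HG-KO and 0 over normoxia MIR210HG-KO, beside 1 over normoxia MIR210-KO and 3 over normoxia WT. Whether the knockouts separate the host RNA from the microRNA was not tested. Kidney and line markers KRT8, KRT18, VIM, NEFM and PAX2 were detected in every library, PAX2 lowest at 1.64 to 6.94 CPM, and their group means were spread by genotype (n = 4 each). KRT8 averaged 28.7 and 118 CPM in hypoxia MIR210HG-KO and MIR210-KO with WT at 28.8 CPM, and 27.5 and 99.7 CPM in the same normoxia knockouts with WT at 20.4 CPM. NEFM averaged 51.2 and 237 CPM with WT at 233 CPM in hypoxia, and 38.2 and 219.9 CPM with WT at 121 CPM in normoxia. PAX2 averaged 1.97 and 4.33 CPM with WT at 5.26 CPM in hypoxia, and 2.32 and 4.72 CPM with WT at 6.22 CPM in normoxia. The part of these marker values in the synthetase differences between genotypes was not tested. Of other cell types, PTPRC of blood cells stayed at or under 0.141 CPM and PECAM1 of endothelium at or under 0.210 CPM. ALB of liver reached 0.242 CPM in hypoxia and 3.67 CPM in normoxia, and its part in the oxygen comparisons was not tested. Hypoxia WT 1 and 3 stood apart from hypoxia WT 2 and 4, with long non-coding RNA at 1.62% and 1.55% of counts against 2.49% and 2.25%. Those libraries, hypoxia MIR210-KO 1 and normoxia MIR210HG-KO 3 are the 4 left out where counts are also given without the libraries that stand apart. Each oxygen level has its own deposited table, so oxygen and table cannot be told apart. In such bulk libraries, fewer cells expressing a gene and less RNA of it per cell cannot be told apart either.

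In normoxia WT cells, CPM per kilobase of gene length (RPKM) placed the cytosolic set above the mitochondrial set. The median level was 57.6 RPKM over the 20 cytosolic members and 14.9 RPKM over the 16 mitochondrial members. AARS, the alanyl enzyme, was highest at 109 ± 1.92 RPKM (SD, n = 4, as for all levels below), followed by EPRS at 105 ± 3.87, FARSA at 104 ± 2.03 and IARS, the isoleucyl enzyme, at 103 ± 2.37 RPKM. IARS2, the mitochondrial isoleucyl enzyme, came next at 99.6 ± 1.91 RPKM and was the only mitochondrial member above TARS2. Neighbouring genes in this order down to IARS2 overlapped in mean ± SD, and IARS2 was clear of SARS, the next gene. In the middle of the order stood SARS (83.1 ± 2.34), YARS (79.9 ± 1.16), GARS (78.3 ± 3.55), QARS (64.1 ± 2.42), TARS (58.8 ± 1.31), KARS (58.4 ± 1.21), MARS (56.8 ± 1.38), VARS (54.7 ± 1.06), NARS (49.1 ± 0.843), RARS (43.3 ± 0.400), LARS (42.8 ± 0.825) and FARSB (35.8 ± 0.746 RPKM). TARS2 of mitochondria (30.6 ± 0.510) and DARS of the cytosol (29.5 ± 0.280 RPKM) were close in level. YARS2, WARS, AARS2 and LARS2 lay between 19.8 and 26.6 RPKM, and NARS2, MARS2, RARS2, EARS2, HARS, VARS2, HARS2, PARS2 and WARS2 between 10.1 and 15.6 RPKM. CARS was the lowest cytosolic member at 9.54 ± 0.336 RPKM, and CARS2 (4.28 ± 0.204), FARS2 (3.51 ± 0.130) and SARS2 (1.48 ± 0.166 RPKM) were the lowest of all. Of 35 neighbouring pairs in the order, 17 were separated by more than their SDs. These levels rest on the gene lengths in the deposited tables, whose derivation is not given in the sources used here.

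The core of the amino acid response element, the site that ATF4 dimers bind, was searched for as TGATGNAA. Both strands of RefSeq promoters (GRCh38.p14) were searched, and each promoter ran from 250 bases before to 50 bases after the RefSeq start site. The core was present in 6 of 16 cytosolic members with a promoter in the table (37.5%) and in 1 of 14 mitochondrial members (7.14%). Of 27305 promoters of all genes, 1003 held it (3.67%). DARS, LARS, VARS, YARS, AARS2 and VARS2 had no entry. The matches are shown because the genes that hold them are among those whose levels differed below. Each line gives the stretch on the strand that reads TGATGNAA, 5′ to 3′, with the match in capitals.
AARS (chr16:70289676-70289703, plus strand): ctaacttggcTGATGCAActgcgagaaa
CARS (chr11:3057408-3057435, plus strand): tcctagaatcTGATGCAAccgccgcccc
IARS (chr9:92293693-92293720, plus strand): cgcacggaggTGATGCAAcgcgctgaaa
MARS (chr12:57488054-57488081, minus strand): aatccctcgcTGATGCAAccggaaccgg
NARS (chr18:57621805-57621832, minus strand): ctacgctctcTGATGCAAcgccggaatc
TARS (chr5:33440957-33440984, minus strand): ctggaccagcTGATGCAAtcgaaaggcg
YARS2 (chr12:32756077-32756104, minus strand): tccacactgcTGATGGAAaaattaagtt
All 6 cytosolic matches share the full letters TGATGCAA, and YARS2 alone has TGATGGAA. In CARS, MARS, TARS, IARS and NARS the match lies within 15 bases of the RefSeq start site. In AARS and YARS2 it lies 187 and 197 bases before that site. The gene bounds of the deposited counts can differ from these sites. MARS, on the plus strand, starts there at 57475445. A match is a description of the letters and was not tested for binding.

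Summed over each class, the cytosolic mRNAs differed widely between groups while the mitochondrial mRNAs differed mainly by oxygen. The 20 cytosolic members summed to 4260.1 ± 63.8 CPM in hypoxia MIR210HG-KO and 4180.5 ± 80.4 CPM in hypoxia MIR210-KO, against 6891 ± 369.8 CPM in hypoxia WT. In normoxia the sums were 4981 ± 110.5 CPM in MIR210HG-KO and 5559 ± 84.7 CPM in MIR210-KO, with WT at 6293 ± 96.2 CPM. No cytosolic sum of a knockout library reached the lowest WT sum at the same oxygen level. The 16 mitochondrial members summed to 980.2 ± 10.4, 965 ± 22.5 and 902 ± 39.7 CPM in hypoxia MIR210HG-KO, MIR210-KO and WT. In normoxia the same groups gave 1277 ± 41.7, 1285 ± 9.10 and 1322 ± 11.8 CPM. The ratio of cytosolic to mitochondrial sums was 7.81, 7.63, 7.67 and 7.43 in the 4 hypoxia WT libraries, and between 3.87 and 4.80 in the other 20. Hypoxia WT 1 and 3, the libraries with less long non-coding RNA, had the higher cytosolic sums of their group (7105 and 7300.4 CPM, against 6539 and 6621 CPM in hypoxia WT 2 and 4), so the difference from the knockouts is also present with WT 2 and 4 alone.

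**Figure D1:**
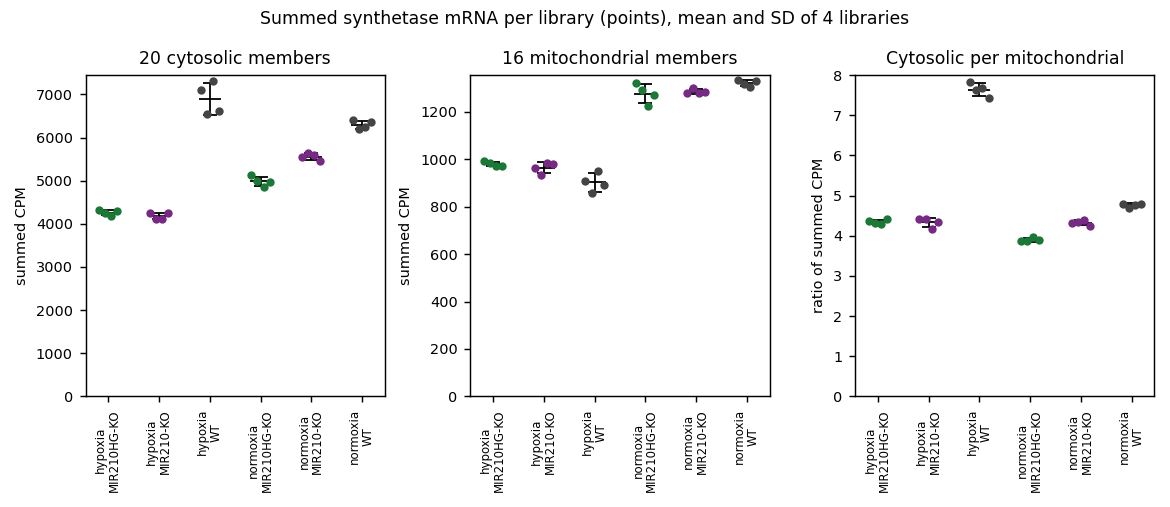
Summed CPM of the 20 cytosolic members, summed CPM of the 16 mitochondrial members and their ratio in every library, with points for libraries and bars for the mean and SD of 4. The ratio stands apart in hypoxia WT alone, where the cytosolic sum is highest and the mitochondrial sum is low as in the other hypoxia groups.

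Low oxygen moved the classes apart in unedited cells. In hypoxia WT against normoxia WT, 12 of 20 cytosolic members rose (60.0%, against 29.6% of all genes tested) and 5 fell (25.0%, against 30.7%), with a median log2 fold change of 0.20. Of the 16 mitochondrial members 0 rose and 12 fell (75.0%), with a median of -0.53. The median over all genes was 0.00. Calls are those of edgeR's quasi-likelihood test with Benjamini-Hochberg adjustment over all genes, at an adjusted p of 0.05, and ± after a log2 fold change is its standard error. Without the 4 libraries that stand apart there were 12 higher and 6 lower among cytosolic members, and 0 higher and 14 lower among mitochondrial members.

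DARS, the aspartyl enzyme, rose most, with 214, 209, 228 and 202 CPM in hypoxia WT against 118, 117, 119 and 118 CPM in normoxia WT. The 4 hypoxia values lay above all normoxia values, a log2 fold change of 0.85 ± 0.06 (adjusted p = 5.8e-13). SARS, the seryl enzyme, had 505, 435, 560.5 and 433 CPM in hypoxia WT and 322, 311, 312 and 329.9 CPM in normoxia WT, a log2 fold change of 0.60 ± 0.06 (adjusted p = 3.6e-10). Its hypoxia libraries 1 and 3, which stand apart, were higher than 2 and 4, and all 4 exceeded normoxia. TARS, the threonyl enzyme (0.55 ± 0.05), GARS, the glycyl enzyme (0.46 ± 0.05), CARS, the cysteinyl enzyme (0.45 ± 0.06), LARS, the leucyl enzyme also described as a leucine sensor of the mTORC1 pathway (0.41 ± 0.04), and FARSB (0.36 ± 0.06) rose by lesser amounts. NARS (0.27), AARS (0.27), WARS (0.26), IARS (0.15) and EPRS (0.13) had the smallest rises. The remaining cytosolic members did not rise.

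VARS, the valyl enzyme, fell most among them, with 160.2, 140.2, 174 and 160.5 CPM in hypoxia WT against 336, 339.8, 331 and 325 CPM in normoxia WT (-1.07 ± 0.08, adjusted p = 6.4e-13). HARS, the histidyl enzyme, had 70.1, 60.2, 71.6 and 66.5 CPM in hypoxia WT and 117, 111, 113 and 117 CPM in normoxia WT (-0.77 ± 0.05, adjusted p = 6.7e-14). Neither gene's hypoxia values overlapped normoxia. FARSA (-0.49 ± 0.07), QARS, the glutaminyl enzyme (-0.47 ± 0.06), and KARS, the lysyl enzyme (-0.29 ± 0.06), fell as well, so the subunits FARSA and FARSB of the phenylalanyl enzyme were called in opposite directions. MARS, the methionyl enzyme (-0.13 ± 0.06), RARS, the arginyl enzyme (0.05 ± 0.05), and YARS, the tyrosyl enzyme (0.04 ± 0.05), were not called.

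Among mitochondrial members, LARS2, the leucyl enzyme, fell most, to 61.6, 60.7, 67.3 and 65.0 CPM in hypoxia WT against 138, 133, 134 and 137 CPM in normoxia WT (-1.09 ± 0.06, adjusted p = 8.0e-17). MARS2, the methionyl enzyme, had 22.7, 22.4, 21.9 and 23.8 CPM in hypoxia WT and 46.5, 45.9, 44.3 and 46.1 CPM in normoxia WT (-1.01 ± 0.07, adjusted p = 2.1e-14). All 8 values of each gene separated by oxygen level. YARS2 (-0.87 ± 0.07), AARS2 (-0.86 ± 0.06), EARS2 (-0.81 ± 0.06), CARS2 (-0.77 ± 0.08), TARS2 (-0.75 ± 0.05) and VARS2 (-0.65 ± 0.06) also fell by more than the remaining called members. IARS2 (-0.38), WARS2 (-0.31), FARS2 (-0.27) and PARS2 (-0.26) fell less, and NARS2 (0.10), RARS2 (-0.02), HARS2 (-0.06) and SARS2 (-0.41) were not called. Transcripts of the mitochondrial genome took 1.93% to 2.96% of counts in the 12 hypoxia libraries and 3.18% to 3.95% in the 12 normoxia libraries, and their part in these changes was not tested.

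Set side by side by amino acid, 16 pairs of a cytosolic and a mitochondrial gene could be formed, with EPRS serving for both EARS2 and PARS2 and FARSA for FARS2. In WT cells under hypoxia the cytosolic change was above the mitochondrial one in 13 of 16 pairs, and in 8 pairs the cytosolic gene rose while its counterpart fell. The median difference within a pair was 0.72 on the log2 scale. For leucine it was LARS at 0.41 and LARS2 at -1.09, and for cysteine CARS at 0.45 and CARS2 at -0.77. Valine and histidine had the other order, with VARS at -1.07 below VARS2 at -0.65 and HARS at -0.77 below HARS2 at -0.06. So had phenylalanine with FARSA at -0.49 and FARS2 at -0.27, but FARSB, the other subunit, rose and was not used in the pairs.

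In the knockouts the mitochondrial members also fell with low oxygen, by smaller medians than the -0.53 of WT. Most cytosolic members that rose in WT did not rise in the knockouts. In hypoxia MIR210-KO against normoxia MIR210-KO, 1 cytosolic member rose (29.3% of all genes rose) and 17 fell (29.5% of all genes fell), with a median of -0.37, and 14 of 16 mitochondrial members fell, with a median of -0.35. In hypoxia MIR210HG-KO against normoxia MIR210HG-KO, 1 cytosolic member rose (25.7% of all genes) and 12 fell (28.3%), with a median of -0.19, and 13 mitochondrial members fell, with a median of -0.31. Medians over all genes were 0.04 and 0.03 in these comparisons. The member that rose was DARS in both knockouts, with 0.33 ± 0.06 in MIR210-KO and 0.57 ± 0.06 in MIR210HG-KO. Of the 12 cytosolic members that rose in WT, 9 fell and 2 were not called in MIR210-KO, and 4 fell and 7 were not called in MIR210HG-KO. All 5 cytosolic members that fell in WT fell in both knockouts, and so did all 12 mitochondrial members that fell in WT. These members were grouped by their WT call. The matching share of all genes with such a WT call was not worked out, so nothing is read from these counts.

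WARS, the tryptophanyl enzyme, which interferon gamma is known to induce, differed most between MIR210-KO and WT in its response. It had 80.4, 77.8, 75.2 and 81.8 CPM in hypoxia MIR210-KO against 146, 142, 156 and 141 CPM in normoxia MIR210-KO, a log2 fold change of -0.89 ± 0.05 (adjusted p = 3.6e-15). In MIR210HG-KO it had 131, 128, 122 and 130.2 CPM in hypoxia and 179.9, 174, 166 and 177 CPM in normoxia (-0.45 ± 0.05, adjusted p = 8.5e-09). In WT the hypoxia libraries had 202, 181, 207 and 193 CPM and the normoxia libraries 173, 162, 157 and 163 CPM, a rise of 0.26 ± 0.05 (adjusted p = 6.3e-05). Hypoxia values of WARS thus lay below normoxia values in every knockout library and above them in every WT library. Among the largest falls in MIR210-KO were VARS (-1.46 ± 0.08), MARS (-0.90 ± 0.06) and FARSA (-0.84 ± 0.07). In MIR210HG-KO the largest falls were VARS (-1.50 ± 0.08), FARSA (-0.94 ± 0.07) and HARS (-0.62 ± 0.05). On the mitochondrial side, MARS2 fell most in both knockouts, with log2 fold changes of -1.19 in MIR210-KO and -1.07 in MIR210HG-KO, followed by YARS2 (-0.96 and -0.89) and LARS2 (-0.69 and -0.65). FARS2 (-0.68) came next in MIR210-KO and EARS2 (-0.62) in MIR210HG-KO.

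These counts moved with the scaling. Upper quartile factors moved the median of all genes by 0.14 in the MIR210-KO comparison and by 0.14 in the MIR210HG-KO comparison, on the log2 scale. With them, 3 cytosolic members rose and 16 fell in MIR210-KO, 6 rose and 9 fell in MIR210HG-KO (3 and 11 with RLE factors), and 8 mitochondrial members fell in MIR210HG-KO. IARS in MIR210HG-KO, -0.11 ± 0.04 with the factors used throughout, had the opposite sign and was not called. Without the 4 libraries that stand apart, cytosolic calls in MIR210HG-KO were 5 higher and 12 lower, and in MIR210-KO 1 higher and 17 lower, and mitochondrial calls 0 higher and 14 lower and 0 higher and 15 lower.

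**Figure D2:**
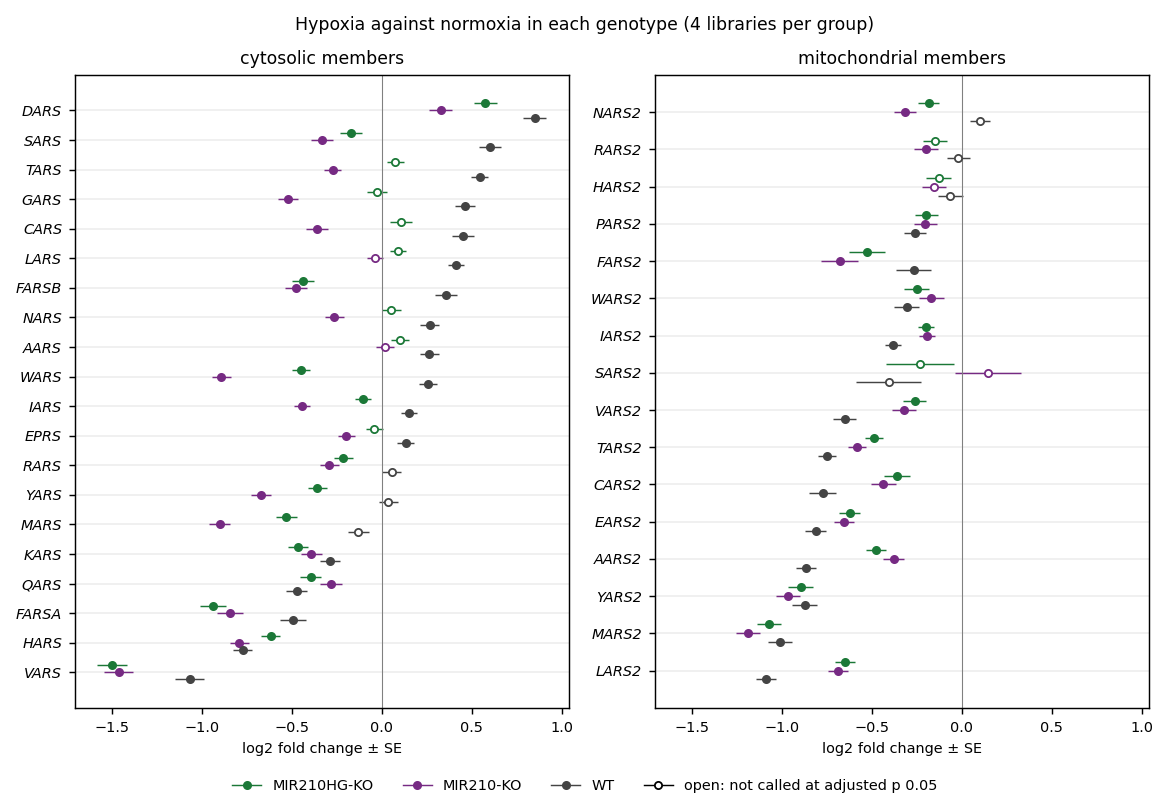
Log2 fold change of each member in hypoxia against normoxia, with its standard error, in MIR210HG-KO, MIR210-KO and WT (4 libraries per group). Members are ordered by the WT value and open points were not called. The upper cytosolic members, led by DARS (0.85) and SARS (0.60), lie right of 0 in WT, and in the knockouts lie near or left of 0 except DARS. Among mitochondrial members the 3 genotypes lie closer together.

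Against WT in hypoxia, both knockouts had less mRNA of nearly every cytosolic synthetase. In MIR210-KO, 0 cytosolic members were higher (28.2% of all genes were) and 18 were lower (27.7% of all genes were), with a median log2 fold change of -0.74 against 0.02 over all genes. In MIR210HG-KO, 1 was higher (24.4% of all genes) and 16 were lower (30.2%), with a median of -0.66 against -0.03. Mitochondrial members were called in both directions, 4 higher and 4 lower in MIR210-KO and 5 higher and 4 lower in MIR210HG-KO, with medians of 0.07 and 0.02. Both comparisons share the hypoxia WT libraries. Without the 4 libraries that stand apart, cytosolic members were 1 higher and 17 lower in MIR210-KO and 2 higher and 15 lower in MIR210HG-KO, and mitochondrial members 5 higher and 3 lower and 6 higher and 3 lower. Upper quartile factors gave 6 higher and 3 lower mitochondrial members in MIR210-KO.

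GARS had 220.2, 207, 202 and 216 CPM in MIR210HG-KO and 193, 185, 172 and 194 CPM in MIR210-KO, against 465, 412, 489 and 427 CPM in WT. Every WT value was above every knockout value, and the log2 fold changes were -1.09 ± 0.06 in MIR210HG-KO and -1.27 ± 0.06 in MIR210-KO (adjusted p = 8.4e-17 and 1.1e-18). GARS lies on chromosome 7, 30594681 to 30634033 of GRCh38, and mutations in it cause a form of Charcot-Marie-Tooth neuropathy. SARS, on chromosome 1, 109213918 to 109238169, had 195, 206, 196 and 199 CPM in MIR210HG-KO and 227, 210.3, 212 and 225 CPM in MIR210-KO, with WT at the values given above. Its log2 fold changes were -1.28 ± 0.06 and -1.15 ± 0.06 (adjusted p = 1.6e-17 and 1.3e-16), again with no overlap. CARS, on chromosome 11, 3000922 to 3057613, had 65.1, 65.8, 62.2 and 64.3 CPM in MIR210HG-KO and 49.2, 43.8, 42.9 and 46.2 CPM in MIR210-KO, against 132, 119, 151 and 122 CPM in WT (-1.02 ± 0.06 and -1.52 ± 0.06). The other tested genes of chromosome 11 had a median of -0.48 in MIR210-KO and -0.06 in MIR210HG-KO in the same comparisons (1042 genes), and their part in the CARS value was not tested.

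WARS was -1.31 in MIR210-KO and -0.61 in MIR210HG-KO, from the values given above. The 96 other tested genes within 5 Mb of WARS had medians of 0.02 and 0.35 in the same comparisons, and their part was not tested. YARS had 305, 299, 298 and 310.3 CPM in MIR210HG-KO and 375, 327, 339 and 364 CPM in MIR210-KO, against 723, 605, 737 and 626 CPM in WT (-1.15 ± 0.06 and -0.94 ± 0.06, adjusted p = 1.7e-17 and 1.4e-15). MARS had 198, 204, 200.4 and 216 CPM in MIR210HG-KO and 190.3, 160.1, 173 and 184 CPM in MIR210-KO, against 384, 337, 386 and 350.4 CPM in WT (-0.83 ± 0.06 and -1.04 ± 0.06). Neither gene's knockout values overlapped WT. MARS overlaps DDIT3, the stress-response gene of CHOP, on the opposite strand, and DDIT3 averaged 13.5 ± 1.10 CPM in MIR210HG-KO and 9.46 ± 0.953 CPM in MIR210-KO, with WT at 46.0 ± 7.89 CPM. The DDIT3 difference is smaller in CPM than that of MARS, and how far reads of one were counted for the other was not tested. FARSB (-0.83 in MIR210HG-KO and -1.02 in MIR210-KO), TARS (-0.77 and -0.93), AARS (-0.61 and -0.82), IARS (-0.83 and -0.68), NARS (-0.68 and -0.66), LARS (-0.69 and -0.59), EPRS (-0.65 and -0.43), VARS (-0.58 and -0.81), FARSA (-0.49 and -0.30) and RARS (-0.18 and -0.35) were lower in both knockouts. DARS was lower in MIR210-KO (-0.37) and was not called in MIR210HG-KO (-0.13). KARS was lower in MIR210-KO by little (-0.14) and was not called in MIR210HG-KO (-0.09). HARS was not called in either, at 0.09 in MIR210HG-KO (95% interval -0.01 to 0.20) and 0.01 in MIR210-KO (-0.09 to 0.12). QARS was the single cytosolic member called higher, at 0.25 ± 0.06 in MIR210HG-KO (adjusted p = 6.4e-04), and was 0.12 ± 0.06 in MIR210-KO (not called). The 200 other tested genes within 5 Mb of QARS had medians of 0.22 and 0.08 in these comparisons, and their part in the QARS values was not tested.

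On the mitochondrial side, LARS2 and AARS2, which fell with hypoxia in all genotypes, fell less far in the knockouts. LARS2 had 95.6, 89.5, 97.4 and 92.6 CPM in MIR210HG-KO and 80.4, 79.7, 94.1 and 85.6 CPM in MIR210-KO, against 61.6, 60.7, 67.3 and 65.0 CPM in WT (0.56 ± 0.06 and 0.42 ± 0.06, adjusted p = 5.2e-10 and 1.5e-07). AARS2 had 78.6, 75.3, 84.8 and 80.3 CPM in MIR210HG-KO and 74.6, 68.6, 73.4 and 74.6 CPM in MIR210-KO, against 53.9, 53.6, 59.2 and 58.6 CPM in WT (0.50 ± 0.06 and 0.37 ± 0.06). For both genes all 8 knockout values were above all 4 WT values. Genes within 5 Mb of LARS2 had medians of 0.23 in MIR210HG-KO and 0.15 in MIR210-KO in these comparisons. Those of AARS2 had -0.15 and -0.06, and the part of neighbouring genes in either value was not tested. TARS2 was also higher in both knockouts (0.17 and 0.22). MARS2 (-0.31), PARS2 (-0.20) and WARS2 (-0.20) were lower in MIR210HG-KO, and RARS2 (-0.18) and FARS2 (-0.63 ± 0.10, adjusted p = 2.9e-06) were lower in MIR210-KO. VARS2 was higher in MIR210HG-KO (0.27) and lower in MIR210-KO (-0.27). IARS2, EARS2, YARS2, HARS2 and SARS2 were not called in either knockout in hypoxia. By amino acid, the cytosolic change lay below the mitochondrial one in 15 of 16 pairs in MIR210HG-KO and 13 of 16 in MIR210-KO, with median differences of -0.77 and -0.87. The exceptions in MIR210-KO were asparagine (NARS -0.66, NARS2 -1.14), phenylalanine (FARSA -0.30, FARS2 -0.63) and histidine (HARS 0.01, HARS2 -0.08). In MIR210HG-KO the exception was histidine (HARS 0.09, HARS2 -0.02). FARSB, which was not used in the pairs, was -1.02 in MIR210-KO, below FARS2.

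**Figure D3:**
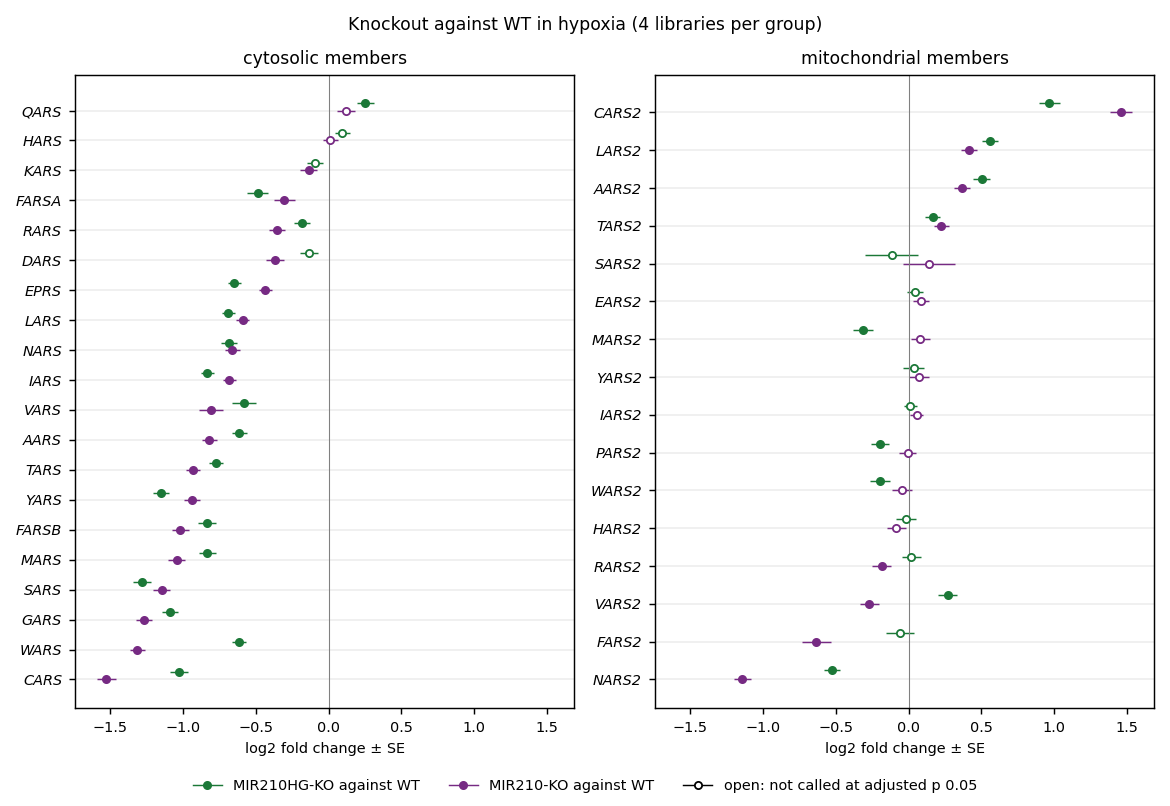
Log2 fold change of each member in hypoxia, MIR210HG-KO against WT and MIR210-KO against WT, with its standard error (4 libraries per group). Members are ordered by the MIR210-KO value and open points were not called. All cytosolic members but QARS and HARS lie left of 0 in MIR210-KO, while mitochondrial members lie on both sides, from CARS2 at 1.46 to NARS2 at -1.14 in MIR210-KO.

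The difference between oxygen responses was tested directly. In MIR210-KO, 0 cytosolic members responded more positively than in WT (12.5% of all genes did) and 17 more negatively (14.0% of all genes did), with a median difference of -0.53 on the log2 scale. In MIR210HG-KO the counts were 0 (10.2% of all genes) and 15 (12.2%), with a median of -0.33. Medians over all genes were 0.02 and 0.01. For mitochondrial members 5 differences were positive and 2 negative in MIR210-KO, and 6 positive and 1 negative in MIR210HG-KO. Upper quartile factors gave 7 positive and 1 negative mitochondrial differences in MIR210-KO. Without the 4 libraries that stand apart, cytosolic differences were 1 higher and 17 lower in MIR210-KO and 2 higher and 13 lower in MIR210HG-KO, and mitochondrial differences 6 higher and 2 lower and 6 higher and 0 lower. Both tests share the 8 WT libraries.

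WARS had the largest difference in MIR210-KO, -1.15 ± 0.07 (adjusted p = 3.3e-13), and -0.70 ± 0.07 in MIR210HG-KO (adjusted p = 1.7e-08). GARS had -0.98 ± 0.08 in MIR210-KO and -0.49 ± 0.08 in MIR210HG-KO, while SARS had -0.93 ± 0.09 and -0.77 ± 0.09. FARSB was nearly the same in both, at -0.84 ± 0.08 in MIR210-KO and -0.79 ± 0.08 in MIR210HG-KO. In the hypoxia libraries FARSB had 87.1, 88.6, 82.2 and 89.2 CPM in MIR210HG-KO and 75.4, 76.5, 75.0 and 78.6 CPM in MIR210-KO, against 170.2, 142, 163 and 143 CPM in WT. In normoxia it had 112, 109, 134 and 115 CPM in MIR210HG-KO and 106, 108, 107 and 104 CPM in MIR210-KO, against 123, 121, 117 and 122 CPM in WT. Its hypoxia values were separated by genotype, whereas normoxia MIR210HG-KO and WT overlapped, with MIR210HG-KO 3 the highest. HARS, KARS and QARS were not called in either test. AARS and EPRS were called in MIR210-KO (-0.25 and -0.33) and not in MIR210HG-KO (-0.16 and -0.17), a difference between the knockouts that was not tested. Among mitochondrial members AARS2 (0.49 in MIR210-KO and 0.39 in MIR210HG-KO), LARS2 (0.40 and 0.44), CARS2 (0.34 and 0.41), VARS2 (0.33 and 0.39) and IARS2 (0.19 and 0.18) differed positively in both tests, and TARS2 in MIR210HG-KO (0.26). NARS2 (-0.42 and -0.29) differed negatively in both, and FARS2 in MIR210-KO (-0.41 ± 0.14, adjusted p = 0.0303).

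In normoxia the cytosolic members were lower in the knockouts too, by less. MIR210HG-KO had 1 cytosolic member higher (15.6% of all genes) and 11 lower (19.6%), with a median of -0.33 against -0.01 over all genes. MIR210-KO also had 1 higher (22.6%) and 11 lower (21.6%), with a median of -0.13 against 0.01. Leaving out any single library of the MIR210-KO comparison left 8 to 10 cytosolic calls. Mitochondrial members gave 1 higher and 6 lower in MIR210HG-KO (3 and 5 with RLE factors) and 3 higher and 4 lower in MIR210-KO. The MIR210-KO count for mitochondrial members was 4, with 2 higher and 2 lower, without normoxia MIR210-KO 3 or 4 or without normoxia WT 1 or 4. Without the 4 libraries that stand apart, cytosolic members were 2 higher and 12 lower in MIR210HG-KO and 1 higher and 14 lower in MIR210-KO, and mitochondrial members 4 higher and 6 lower and 3 higher and 7 lower. Both comparisons share the normoxia WT libraries.

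YARS was lowest relative to WT in MIR210HG-KO, with 400.4, 389.7, 382 and 380.4 CPM in MIR210HG-KO and 545, 574, 569 and 552 CPM in MIR210-KO, against 669, 651, 648 and 656 CPM in WT. The log2 fold changes were -0.76 ± 0.05 and -0.23 ± 0.05 (adjusted p = 1.0e-12 and 8.9e-04), and the 3 groups did not overlap. CARS had 59.7, 56.6, 63.5 and 59.0 CPM in MIR210HG-KO and 57.6, 56.8, 59.8 and 59.5 CPM in MIR210-KO, against 97.2, 90.8, 96.6 and 98.4 CPM in WT (-0.68 ± 0.06 and -0.71 ± 0.06). Both knockouts lay below WT and overlapped each other. AARS had 383, 368, 333 and 356 CPM in MIR210HG-KO and 324, 337, 321 and 341 CPM in MIR210-KO, against 503, 484, 485 and 495 CPM in WT (-0.45 ± 0.05 and -0.57 ± 0.05), with every WT value above every knockout value. IARS was lower in MIR210HG-KO (-0.58 ± 0.05, adjusted p = 5.5e-12) and was -0.09 ± 0.04 in MIR210-KO, where it was not called. GARS was lower in both (-0.59 ± 0.06 in MIR210HG-KO and -0.29 ± 0.06 in MIR210-KO), and VARS in MIR210-KO (-0.41 ± 0.08, adjusted p = 7.3e-05). QARS was higher in MIR210HG-KO (0.17) and DARS in MIR210-KO (0.16), beside medians of 0.13 and 0.06 for genes within 5 Mb. HARS, KARS, RARS and FARSA were not called in either. Beyond CARS2, NARS2 and VARS2, described below, MARS2 had the largest called mitochondrial change in MIR210-KO, where it was higher (0.26). In MIR210HG-KO the largest called were PARS2 (-0.26), WARS2 (-0.25) and MARS2 (-0.25), all lower. SARS2, at -0.41 in MIR210-KO and -0.29 in MIR210HG-KO, was not called.

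The knockouts were also compared with each other. In hypoxia MIR210HG-KO against MIR210-KO, 10 cytosolic members were higher (26.0% of all genes) and 4 lower (29.0%), with a median of 0.15 against -0.01 over all genes. WARS (0.70 ± 0.05), CARS (0.50 ± 0.06), DARS (0.23 ± 0.06) and VARS (0.23 ± 0.08) were the largest, all higher in MIR210HG-KO. YARS (-0.21), EPRS (-0.21), FARSA (-0.18) and IARS (-0.15) were the 4 lower in MIR210HG-KO. In normoxia the balance was the other way, with 5 higher (23.4%) and 9 lower (25.8%), led by YARS (-0.53 ± 0.05), IARS (-0.49 ± 0.04), EPRS (-0.37 ± 0.05) and NARS (-0.34 ± 0.05), and a median of -0.09 against 0.00 over all genes. Upper quartile factors gave 3 higher and 10 lower in normoxia. Genes within 5 Mb of WARS on chromosome 14 had a median of 0.41 in hypoxia and 0.46 in normoxia (96 genes), beside 0.70 and 0.25 for WARS itself. Those of CARS had 0.46 in hypoxia, beside 0.50 for CARS, and those of VARS 0.44, beside 0.23 for VARS, while those of DARS had -0.09, beside 0.23 for DARS. Among mitochondrial members, 6 were higher and 3 lower in hypoxia (4 and 4 with upper quartile factors), and 4 higher and 4 lower in normoxia. NARS2 (0.62 in hypoxia and 0.49 in normoxia), VARS2 (0.54 and 0.48) and FARS2 (0.57 and 0.42) were higher in MIR210HG-KO at both oxygen levels. CARS2 (-0.49 and -0.57) and MARS2 (-0.39 and -0.51) were lower at both. In hypoxia the genes within 5 Mb had medians of 0.45 for NARS2, 0.39 for VARS2, 0.46 for FARS2, -0.52 for CARS2 and 0.02 for MARS2, and the part of neighbouring genes in any of these values was not tested. Without the libraries that stand apart, cytosolic members were 11 higher and 6 lower in hypoxia and 5 higher and 10 lower in normoxia.

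CARS2 and NARS2 differed from WT at both oxygen levels by more than the other mitochondrial members in MIR210-KO. CARS2, the mitochondrial cysteinyl enzyme, on chromosome 13, 110641412 to 110713603, had 48.7, 52.5, 53.9 and 49.9 CPM in hypoxia MIR210HG-KO and 72.2, 65.7, 75.7 and 74.3 CPM in hypoxia MIR210-KO, against 25.4, 22.3, 30.7 and 26.5 CPM in hypoxia WT. In normoxia it had 75.2, 65.3, 62.0 and 60.6 CPM in MIR210HG-KO and 93.6, 99.8, 97.4 and 98.5 CPM in MIR210-KO, against 42.7, 47.1, 46.1 and 43.3 CPM in WT. The 3 genotypes did not overlap at either oxygen level, with MIR210-KO highest. In hypoxia the log2 fold changes were 0.97 ± 0.07 in MIR210HG-KO and 1.46 ± 0.07 in MIR210-KO, and in normoxia 0.56 ± 0.07 and 1.12 ± 0.07 (adjusted p at most 3.2e-07). The 51 other tested genes within 5 Mb had medians of 0.40 and 1.06 in hypoxia and 0.39 and 0.98 in normoxia, for MIR210HG-KO and MIR210-KO in that order. The neighbouring genes therefore moved with CARS2, and their part in its value was not tested.

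NARS2, the mitochondrial asparaginyl enzyme, on chromosome 11, 78435961 to 78574874, had 35.7, 39.3, 34.3 and 37.4 CPM in hypoxia MIR210HG-KO and 23.3, 25.1, 23.1 and 24.1 CPM in hypoxia MIR210-KO, against 56.4, 47.9, 54.7 and 51.8 CPM in hypoxia WT. In normoxia it had 41.4, 41.6, 42.4 and 41.0 CPM in MIR210HG-KO and 29.9, 29.2, 31.6 and 28.3 CPM in MIR210-KO, against 49.1, 48.2, 50.2 and 48.8 CPM in WT. No values of the 3 genotypes overlapped at either level, and MIR210-KO was lowest. The log2 fold changes in MIR210HG-KO and MIR210-KO were -0.52 ± 0.06 and -1.14 ± 0.06 in hypoxia and -0.24 ± 0.06 and -0.72 ± 0.06 in normoxia. NARS2 shares chromosome 11 with CARS, where the other tested genes had medians of -0.48 in hypoxia and -0.50 in normoxia in MIR210-KO against WT, and -0.06 and -0.02 in MIR210HG-KO against WT. VARS2 and VARS, both on the short arm of chromosome 6, had lower neighbours in MIR210-KO as well. Genes within 5 Mb of VARS2 had a median of -0.43 in hypoxia and -0.41 in normoxia, beside -0.27 and -0.60 for VARS2. Those around VARS had -0.44 and -0.46, beside -0.81 and -0.41 for VARS. FARS2, also on chromosome 6, had -0.63 and -0.22 beside -0.31 and -0.23 for its neighbours. Genes within 5 Mb of SARS had a median of 0.02 and those of GARS 0.15 in hypoxia MIR210-KO against WT. SARS and GARS were picked for this after their values were seen. The part of neighbouring genes in the values of any member was not tested.

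**Figure D4:**
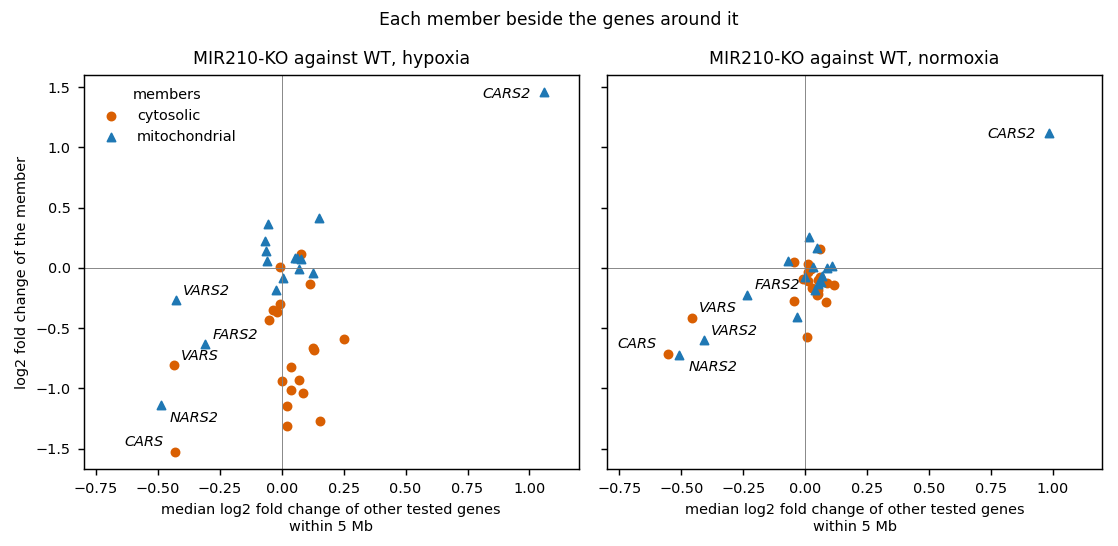
Log2 fold change of each member (vertical) and the median log2 fold change of the other tested genes within 5 Mb (horizontal), MIR210-KO against WT in hypoxia and in normoxia, with circles for cytosolic and triangles for mitochondrial members. CARS2 lies at the upper right and CARS, NARS2, VARS, VARS2 and FARS2 at the lower left, while most cytosolic members in hypoxia have negative values beside a neighbour median near 0.

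**Figure D5:**
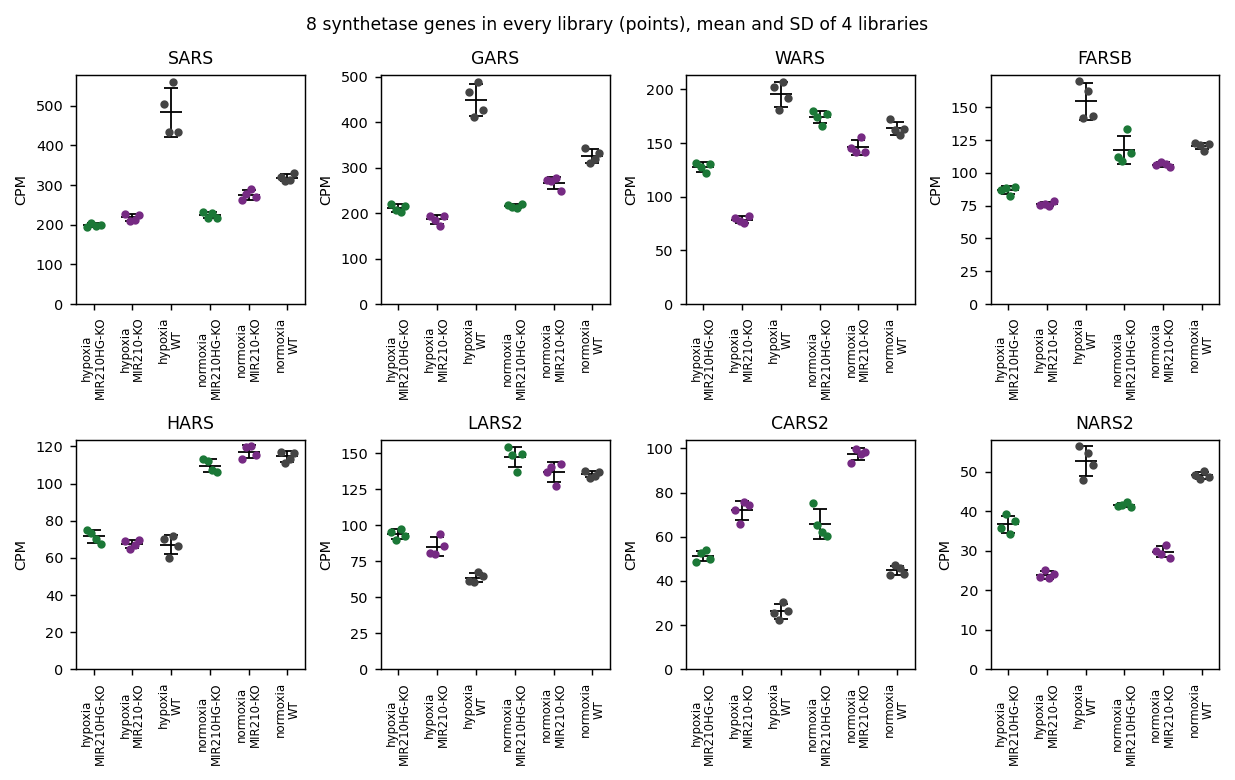
CPM of SARS, GARS, WARS, FARSB, HARS, LARS2, CARS2 and NARS2 in every library (points), with the mean and SD of 4. SARS and GARS are highest in hypoxia WT, HARS separates by oxygen level and not by genotype, LARS2 is lowest in hypoxia WT, and CARS2 and NARS2 separate by genotype at both oxygen levels.

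Within the cytosolic class, the 8 members of the multi-synthetase complex (EPRS, IARS, LARS, MARS, QARS, RARS, KARS and DARS) had smaller median differences from WT in hypoxia than the other 12. Medians were -0.41 for complex members and -0.73 for the others in MIR210HG-KO, with 5 of 8 and 11 of 12 lower (30.2% of all genes were, median -0.03). In MIR210-KO they were -0.40 and -0.93, with 7 of 8 and 11 of 12 lower (27.7% of all genes were, median 0.02). In WT the oxygen response had medians of 0.09 for complex members and 0.27 for the others, against 0.00 over all genes. These are descriptions with no test of the difference. Of the scaffold proteins of the complex, AIMP1, AIMP2 and EEF1E1, all 3 were lower in hypoxia MIR210-KO against WT and 2 in hypoxia MIR210HG-KO, and 0 and 0 in normoxia. AIMP2 averaged 23.0 ± 1.42 CPM in MIR210HG-KO and 18.3 ± 0.372 CPM in MIR210-KO, with WT at 36.9 ± 4.67 CPM (-0.68 ± 0.07 and -1.01 ± 0.07). AIMP1 was -0.62 in MIR210HG-KO, and EEF1E1 was -0.62 in MIR210-KO. Their oxygen responses were called more negative than in WT for all 3 in MIR210-KO (14.0% of all genes) and all 3 in MIR210HG-KO (12.2%). By structural class, class I synthetases had medians of -0.19 in MIR210HG-KO and -0.23 in MIR210-KO in hypoxia, and class II synthetases -0.20 and -0.37.

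The cytosolic synthetases were set beside the genes of the ATF4 arm, from a list of 15. In hypoxia against WT, 15 of 15 were lower in MIR210HG-KO (30.2% of all genes were), and 14 lower and 1 higher in MIR210-KO (27.7% and 28.2% of all genes), with medians of -1.18 and -1.65 against -0.03 and 0.02 over all genes. In normoxia 14 of 15 were lower in MIR210HG-KO (19.6% of all genes) and 14 in MIR210-KO (21.6%). ATF3, a stress-induced transcription factor, was -2.42 in hypoxia MIR210HG-KO and -3.21 in hypoxia MIR210-KO, and TRIB3, a pseudokinase that CHOP and ATF4 induce, -2.09 and -2.64. In normoxia CHAC1, which degrades glutathione, was -3.61 and -2.67, and ASNS, the asparagine synthetase, -1.96 and -1.34. The mRNA of ATF4 itself had 653, 664, 675 and 709 CPM in hypoxia MIR210HG-KO and 675, 609.8, 591 and 619 CPM in hypoxia MIR210-KO, against 1064, 911, 1204 and 925 CPM in hypoxia WT. Every knockout value was below every WT value (-0.60 ± 0.06 and -0.72 ± 0.06), while hypoxia against normoxia in WT gave 0.03 ± 0.06 (not called). With hypoxia, 10 of 15 rose and 2 fell in MIR210HG-KO (25.7% and 28.3% of all genes), with a median of 0.49, where 1 cytosolic synthetase rose and 12 fell with a median of -0.19. In MIR210-KO 5 rose and 7 fell (29.3% and 29.5%), with a median of -0.11, and in WT 9 rose and 3 fell (29.6% and 30.7%), with a median of 0.41. Against the WT response, 4 were more negative and 4 more positive in MIR210HG-KO (12.2% and 10.2% of all genes), where 15 of 20 cytosolic synthetases were more negative. In MIR210-KO 11 were more negative and 2 more positive (14.0% and 12.5%). CHAC1 responded more positively than in WT in MIR210HG-KO (2.27) and PPP1R15A, the eIF2 phosphatase subunit that ends the response, more negatively (-1.85). The CHAC1 range was 3.12 to 3.93 CPM in normoxia MIR210HG-KO and 10.1 to 13.6 CPM in hypoxia MIR210HG-KO. In WT it was 34.9 to 46.4 CPM in normoxia and 25.6 to 34.8 CPM in hypoxia, so MIR210HG-KO stayed below WT at both levels. Protein levels and eIF2 alpha phosphorylation were not measured.

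Of the 4 eIF2 alpha kinases, EIF2AK3, which encodes PERK, rose with hypoxia in WT (1.38 ± 0.08) and was lower in the hypoxia knockouts, averaging 21.5 ± 2.23 CPM in MIR210HG-KO and 19.5 ± 1.05 CPM in MIR210-KO, with WT at 41.9 ± 3.66 CPM (-0.97 ± 0.08 and -1.10 ± 0.08). EIF2AK2, the kinase activated by double-stranded RNA, was higher in both (0.40 and 0.52). XPOT, which exports mature transfer RNA from the nucleus, differed in the same direction as most cytosolic synthetases, averaging 330.0 ± 13.4 CPM in hypoxia MIR210HG-KO and 355 ± 16.1 CPM in hypoxia MIR210-KO, against 602 ± 20.1 CPM in hypoxia WT (-0.87 ± 0.05 and -0.76 ± 0.05). Beside the counts of the lists that follow, 29.6% of all genes rose and 30.7% fell with hypoxia in WT. In hypoxia against WT, 24.4% were higher and 30.2% lower in MIR210HG-KO, and 28.2% higher and 27.7% lower in MIR210-KO. Several list counts lie near these shares, and nothing is read from those. Of the 13 transfer RNA maturation and export genes, 2 rose and 6 fell with hypoxia in WT, with POP1 of RNase P (-1.60) and LAGE3 of the KEOPS complex (-1.37) lowest. In hypoxia against WT, 5 were lower and 1 higher in MIR210HG-KO and 8 lower and 3 higher in MIR210-KO, where TP53RK (-0.90) and POP1 (0.87) changed most. The 9 tested translation elongation genes serve both compartments, and 1 rose and 6 fell with hypoxia in WT. Of the cytosolic factors EEF1A1 rose (0.12), EIF5A (-1.02), EEF1D (-0.92) and EEF2 (-0.20) fell and EEF1B2 (-0.13) was not called. Of the mitochondrial factors TUFM (-0.93), TSFM (-0.69) and GFM1 (-0.48) fell and GFM2 (-0.02) was not called. In hypoxia against WT, 5 were lower and 1 higher in MIR210HG-KO, where EEF2 was -0.74, and 1 lower and 3 higher in MIR210-KO. Among 8 tested genes of a mixed list of mitochondrial factors, not all of which act in aminoacylation, 5 fell and 2 rose with hypoxia in WT. PTCD1 (-0.72) and MTFMT, which formylates the initiator methionyl-tRNA (-0.60), were lowest. LONP1, a mitochondrial protease that ATF4 is also known to induce, was -0.87 in hypoxia MIR210HG-KO and -0.35 in hypoxia MIR210-KO. The 8 selenocysteine and proofreading genes gave 3 higher and 1 lower in WT under hypoxia, with SEPSECS, which makes selenocysteyl-tRNA, at 0.74. In hypoxia against WT they gave 2 higher and 5 lower in MIR210HG-KO and 0 higher and 2 lower in MIR210-KO.

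Returning to the promoters shown above, the 6 cytosolic members with TGATGNAA in their promoter were all lower in hypoxia in both knockouts, with medians of -0.80 in MIR210HG-KO and -0.87 in MIR210-KO. Of the 10 with a promoter and no match, 7 were lower in MIR210HG-KO and 8 in MIR210-KO, with medians of -0.55 and -0.39. Of all genes 30.2% were lower in MIR210HG-KO and 27.7% in MIR210-KO. With hypoxia in WT, 5 of 6 with a match rose and 0 fell, and 5 of 10 without one rose and 4 fell (29.6% and 30.7% of all genes). SARS, GARS and WARS, which had some of the largest changes, have no match in this window. In normoxia, all 6 with a match were lower in MIR210HG-KO and 3 of 10 without, but in MIR210-KO 4 of 6 and 4 of 10 were (19.6% and 21.6% of all genes in these comparisons). In the response to hypoxia, members with a match had the higher median in every genotype, 0.27 against 0.09 without a match in WT. Medians with a match were 0.06 in MIR210HG-KO and -0.32 in MIR210-KO, against -0.42 and -0.43 without. Of the 6 with a match 2 and 5 fell, against 8 and 10 of the 10 without (28.3% and 29.5% of all genes). The difference from the WT response had medians of -0.30 with a match and -0.36 without in MIR210HG-KO, and -0.68 and -0.35 in MIR210-KO. YARS2, the mitochondrial member with a match, fell with hypoxia in all genotypes (-0.87 in WT) and was not called in either knockout in hypoxia (0.03 and 0.07). No test was made of this split.

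The strand setting of the authors' counting is not given in the sources used here, so reads of a member and of a gene on the opposite strand cannot be told apart. Of the 36 members, 28 overlap another annotated gene, which for 22 of them lies on the opposite strand. For 9 the overlapping gene reaches 10% of the member's own CPM: HARS and HARS2, which overlap each other head to head and are also close in sequence, KARS with TERF2IP, YARS with S100PBP, CARS2 with ING1, EARS2 with UBFD1, SARS2 with MRPS12, WARS2 with AL359915.2 and YARS2 with DNM1L. Their values are uncertain to that extent. SARS2 is the extreme case, averaging 3.86 CPM over the 24 libraries beside 50.5 CPM for MRPS12, and was not called in any of the 11 comparisons. HARS2 was not called in any of them either.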

How the data were processed

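Total RNA of HEK293T cells was extracted with TRIzol and sequenced in 24 libraries made with an NEBNext Ultra RNA kit, per the labels' protocols, 4 in each of 6 groups, grouped by the labels. The authors deposited read counts per gene in 2 tables, 1 for each oxygen level, with 58735 genes in each. The submitters' processing notes name STAR 2.6.1d, featureCounts 1.5.0-p3, DESeq2 1.20.0, edgeR 3.24.3 and GRCh38, and the strand setting and annotation release are not given in the sources used here. Total counts ranged from 25556776 to 37858947 per library, and 0 columns belonged to other series.

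The analysis used edgeR 4.0.16 under R 4.3.3. Genes passing filterByExpr (minimum count 10, groups given) were kept, 19952 in all, with TMM factors and 1 quasi-likelihood model over all 24 libraries. The 11 comparisons were MIR210HG-KO and MIR210-KO against WT and against each other at each oxygen level, hypoxia against normoxia in each genotype, and the difference in oxygen response between each knockout and WT. The Benjamini-Hochberg adjustment ran over all tested genes, and a gene was called at an adjusted p of 0.05. The standard error is the absolute log2 fold change divided by the square root of F. RPKM used the gene lengths deposited by the authors. Since replicates may be technical, p-values measure only the spread between these libraries.

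The members and the gene lists were chosen with earlier results of these data known. For each class and comparison the text names the 4 called members with the largest change, and up to 2 called genes of each pathway list. Other members are given by value. The ATF4 gene and XPOT, and members quoted for contrast, were chosen after their values were seen. Counts over a class or list stand beside the share of all genes called, with no test of the class. The model was tested on simulated data.

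Alternatives were RLE and upper quartile factors, no filter, at least 1 CPM in 4 libraries, DESeq2 1.42.0, only the compared groups, the replicate number as a block, the 4 libraries that stand apart in an earlier analysis of these data left out, and each library left out in turn.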

Additional observations from a re-analysis of the deposited data

Results flagged for a closer look

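In 5 of 174 groups of 4 values tested (2.87%), 1 library lay far from the other 3, and chance flags about 1 group in 20. NARS had 162 CPM in normoxia MIR210HG-KO 3, against 137 to 140 CPM in the other 3, and IARS had 474 CPM in the same library, against 519 to 526 CPM. FARS2 had 12.9 CPM in normoxia MIR210-KO 1, against 15 to 15.3 CPM. YARS2 had 59.2 CPM in normoxia WT 2, against 56.3 to 56.7 CPM. The summed mitochondrial synthetases reached 1299 CPM in normoxia MIR210-KO 2, against 1279 to 1282 CPM in the other 3.

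The oxygen response of a knockout differed from that of WT, by the test of the difference itself, for the following named genes, on the log2 scale. In MIR210-KO the differences were -1.15 for WARS, -0.98 for GARS, -0.93 for SARS and -0.84 for FARSB of the cytosol. Of the mitochondrial members they were 0.49 for AARS2, -0.42 for NARS2, -0.41 for FARS2 and 0.40 for LARS2. In MIR210HG-KO they were -0.79 for FARSB, -0.77 for SARS, -0.70 for WARS and -0.49 for GARS. For mitochondrial members they were 0.44 for LARS2, 0.41 for CARS2, 0.39 for VARS2 and 0.39 for AARS2.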

How the results depend on the processing

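Of 396 member values, 36 in each of 11 comparisons, 268 were called. Under the 8 settings other than leaving out a single library, the calls lost were 32 with no low-count filter, 23 with upper quartile factors, 9 with the 4 libraries that stand apart left out, 9 with only the compared groups fitted, 6 with RLE factors, 4 with DESeq2, 4 with the replicate block and 2 with at least 1 CPM in 4 libraries. With upper quartile factors IARS in hypoxia against normoxia of MIR210HG-KO had the other sign, 0.030 (adjusted p = 0.587), and 8 mitochondrial members were called in that comparison, against 13 with TMM. Those factors raised the median of all genes by 0.14 there. With each library left out in turn, mitochondrial calls in normoxia MIR210-KO against WT ranged from 4 to 7, against 7 with all libraries, and no called value changed sign in any of these fits. The replicate block gave 12 cytosolic calls in normoxia MIR210HG-KO against MIR210-KO, against 14 without it, and 13 mitochondrial calls in hypoxia against normoxia of WT, against 12. Samples of the same number share only the number: the mean correlation of their deviations was 0.006 (-0.29 to 0.26 over 60 pairs), and 7 of 24 libraries correlated best with libraries of their own number. The causes of these shifts were not tested. Oxygen level and deposited table cannot be told apart, and low counts limit SARS2.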
